A study of Homo sapiens with 4 samples.

Results

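The RAD21 peaks on the long arms of chromosomes 8, 10, 16 and 17 of HCT116 cells were examined. HCT116 is a near-diploid human colorectal carcinoma line, and these arms are described as carrying gained segments in it, though neither the study nor its sample labels state this. Peaks were chosen by position alone, as those with a summit on the long arm of chromosome 8 from 45.2 Mb, of chromosome 10 from 41.6 Mb, of chromosome 16 from 38.3 Mb or of chromosome 17 from 25.1 Mb to the chromosome end (GRCh38). This gave 7698 of the 56853 peaks (13.5%), with 2046 on 8q, 2134 on 10q, 1229 on 16q and 2289 on 17q. The short arms of the same chromosomes, used for comparison, held 3297 peaks.

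The study profiled RAD21 by ChIP-seq in untreated wild-type HCT116 cells and in HCT116_RAD21_AID cells, with and without auxins. HCT116_RAD21_AID is 1 clone with an mAID degron at the C-terminus of RAD21, homozygous, and a lentiviral OsTIR1 gene. Its auxin samples were kept for 6 h in 500 uM alpha-naphthaleneacetic acid with indole-3-acetic acid at the same concentration. All peaks described here were called in the untreated wild-type library. The only Input library in the series came from the auxin-treated clone, and the sources do not state which Input served as the control for the wild type. Each group was 1 library, so no difference had a replicate check, and intervals cover counting error only.

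RAD21 is the subunit that closes the cohesin ring, which extrudes chromatin loops and holds sister chromatids together. Extruding cohesin halts at CTCF bound to DNA in one orientation, so RAD21 peaks in interphase cells largely mark CTCF sites. In a ChIP-seq experiment a segment present in extra copies gives more Input fragments per base, and it offers more copies of each binding site. The peak caller used here sets ChIP fragments at the summit against a local background taken from Input. Both quantities were recovered for each peak from its fold enrichment and its p-value. The background has a lower limit, the floor of 5.9 fragments, which is the genome-wide mean. A peak is at the floor when no Input window around it (fragment length, 1 kb or 10 kb) exceeded that mean.

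For orientation, the strongest peak with the CTCF consensus outside and inside the stretch of raised background described below is shown for chromosomes 10, 16 and 17, since these pairs show the kind of site being counted in both settings. Each line gives 60 bases of the plus strand of GRCh38, with the consensus match in capitals.
10q outside, in an intron of RET, chr10:43105628-43105687: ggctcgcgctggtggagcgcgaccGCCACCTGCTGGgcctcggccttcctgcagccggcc
10q inside, intergenic near KCNK18, chr10:117216747-117216806: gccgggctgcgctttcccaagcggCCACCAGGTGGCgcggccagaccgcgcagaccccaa
16q outside, in an intron of MMP2, chr16:55465273-55465332: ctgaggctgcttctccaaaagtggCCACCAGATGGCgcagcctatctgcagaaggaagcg
16q inside, intergenic near ZNF469, chr16:88443158-88443217: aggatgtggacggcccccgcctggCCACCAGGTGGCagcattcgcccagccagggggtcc
17q outside, intergenic near COPRS, chr17:31842701-31842760: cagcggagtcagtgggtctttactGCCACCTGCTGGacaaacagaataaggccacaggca
17q inside, in an intron of a lncRNA near DLX3, chr17:49998383-49998442: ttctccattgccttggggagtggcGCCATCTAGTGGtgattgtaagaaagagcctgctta

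These peaks are strong on both sides. The RET peak had 468 fragments over a background of 8.524 (49.2-fold) and the KCNK18 peak had 824 over 9.471 (78.8-fold). The MMP2 peak had 756 over 6.63 (99.2-fold) and the ZNF469 peak had 783 over 8.627 (81.4-fold). The COPRS peak had 465 over the floor of 5.9 (67.5-fold) and the DLX3 peak had 597 over 7.786 (68.1-fold). In the pairs on 10q, 16q and 17q alike, the background was higher inside the raised stretch. The stretches were placed by the background, so this order is a description only. The order of the fold enrichments was not the same in each pair.

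Over the whole arms, the background stood higher on the long arms. At the floor were 1212 of the 7698 long-arm peaks, or 15.7% (Wilson 95% interval, 14.9 to 16.6), against 36.6% (35.0 to 38.3) of short-arm peaks, and 31.3% of all peaks on chromosomes 1 to 22 and X. The other autosomes stood at 32.1% and chromosome X, of which this line has a single copy, at 90.3%. The share at the floor was 9.97% on 8q against 39.0% on 8p, and 11.2% on 17q against 33.9% on 17p. It was 21.4% on 10q against 32.2% on 10p, and 24.1% on 16q against 39.7% on 16p. Thus the intervals of the long and short arm did not overlap on any of these chromosomes.

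The median background was 6.63 fragments on each of the 4 short arms. It was 8.996 on 8q (95% interval, 8.775 to 9.216), 8.524 on 17q, 7.577 on 10q and 7.449 on 16q (7.154 to 7.577). On the log2 scale the long arm exceeded the short arm by 0.44 (0.399 to 0.481) on chromosome 8, 0.36 (0.351 to 0.374) on chromosome 17, 0.19 (0.181 to 0.204) on chromosome 10 and 0.17 (0.114 to 0.223) on chromosome 16. Values below the floor are replaced by it, so a median cannot fall under 5.9 on any arm. Where the fragment-length window sets the background, it is a whole number of Input fragments times 0.9471. Many peaks therefore share values such as 6.63, 7.577 and 8.524. Such ties narrow the intervals, and equal medians need not mean equal levels.

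The medians of ChIP fragments at the summit differed little between the arms. This median was 50 on 8q and 53 on 8p, 48 on 10q and 46 on 10p, 39 on 16q and 43 on 16p, and 46 on 17q and 43 on 17p. The interval of the log2 ratio included 0 on each chromosome, from -0.14 (-0.302 to 0.0201) on chromosome 16 to 0.10 (-0.0753 to 0.27) on chromosome 17. Among peaks with the CTCF consensus the interval lay above 0 on chromosomes 10 (0.46, 0.0312 to 0.878) and 17 (0.68, 0.365 to 0.995). It also did so on both among peaks with a q-value up to 1e-05 (0.22 on each). The q-value sets fragments against the background, so this cut asks for more fragments where the background is higher. The ratios under that cut are therefore descriptions. Over the 60 long-arm bins of 5 Mb, which share a library, the Spearman correlation of the median background with the median summit fragments was 0.42, and it was 0.33 over 471 bins of the other autosomes.

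The median fold enrichment was 4.64 (4.431 to 4.872) on 8q and 6.38 (5.942 to 6.811) on 8p. The intervals of the long and short arm overlapped on chromosome 10, with 5.22 (5.029 to 5.598) and 5.51 (5.176 to 5.942), on chromosome 16, with 4.58 (4.28 to 4.923) and 5.22 (4.782 to 5.797), and on chromosome 17, with 4.55 (4.275 to 4.76) and 5.01 (4.638 to 5.507).

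Peaks were denser on 10q, with 23.25 per Mb outside assembly gaps against 16.86 on 10p (log2 ratio 0.46, 0.339 to 0.589), and on 17q, with 39.44 against 30.35 (0.38, 0.259 to 0.499). The difference was small on chromosome 16, with 28.03 against 25.74 (0.12, 0.000589 to 0.246), and it turned to -0.11 over full length and to -0.19 without 5 Mb at the arm ends. On chromosome 8 the densities of 20.51 and 19.25 did not differ beyond counting error (0.09, -0.0241 to 0.208), and the ratio turned to -0.23 without the arm ends. Among bins, density moved with base composition: over the 60 bins of 5 Mb on the long arms its Spearman correlation with GC content was 0.89, a description of bins that share a library. Between the arms, GC content was higher on the long arm only on chromosome 10 (41.8% against 40.9%). It was 39.6% on 8q against 41.5% on 8p, 43.9% on 16q against 45.4% on 16p, and 45.2% on 17q against 45.5% on 17p.

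**Figure D1:**
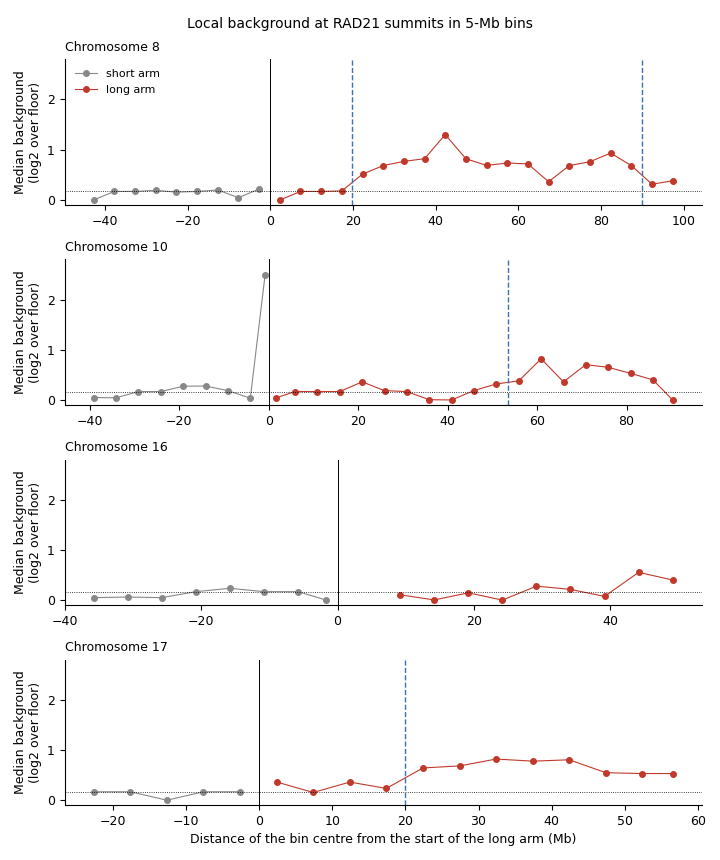
Median local background of RAD21 peaks in 5-Mb bins, as log2 over the floor (vertical axis), against distance from the start of the long arm in Mb (horizontal axis; short arms to the left, in grey, long arms in red). The dotted line is the median of all 592 bins (0.168), the dashed lines are the 4 steps found; 8q and 17q rise well inside the arm, and the high point on the short arm of chromosome 10 is a bin next to the centromere.

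The long arms were chosen as arms described as gained, and copy number itself was not measured here, so this description was set beside the Input background bin by bin. The raised background covered only part of each arm. A bin was called raised when its median background lay at least 0.3 (log2) above the median of all bins, and 7.26% of all 592 bins were. Raised were 26 of the 60 long-arm bins (43.3%), with 13 of 20 on 8q, 8 of 12 on 17q, 4 of 19 on 10q and 1 of 9 on 16q. On the short arms 1 of 31 bins was raised, the 10p bin from 40 Mb at 2.49, where the median fold was 1.92. On the other chromosomes 16 of 501 were (3.19%), and 8 of those 16 held peaks with a background over 10 times the floor.

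Splitting the bin medians placed 4 steps of at least 0.3 on these chromosomes, all on long arms. On 8q the background rose by 0.58 at 65 Mb, from a median of 0.168 to 0.745, and fell by 0.38 at 135 Mb. On 10q it rose by 0.37 at 95 Mb, and on 17q by 0.43 at 45 Mb. No step of this size was found on 16q or on any of the 4 short arms. Among 23 chromosomes 5 had a step (21.7%). The remaining ones were chromosome 13, with a fall of -1.7 at 25 Mb, and chromosome 21, with a fall of -1.3 at 15 Mb, so that no rise was found on any other chromosome.

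A rise on 16q and a fall near the end of 10q appeared only under other settings. With a minimum step of 0.2, 16q rose by 0.29 at 80 Mb, and this step was 0.36 among peaks of intermediate GC content (41.9 to 48.5%) and 0.42 among peaks with a q-value up to 1e-05. The same minimum gave a step of -0.202 on 17q at 70 Mb, from 0.733 to 0.531, inside the raised stretch described below. On 10q the fall was found in bins of 2 Mb (at 126 and 130 Mb), in bins shifted by 2.5 Mb (at 122.5 Mb), with a minimum step of 0.2 and outside promoters (at 125 Mb) and at intermediate GC content (at 120 Mb). With ends of 1 bin allowed, a setting added after the data were examined, it was -0.57 at 130 Mb. Its place thus varied from 120 to 130 Mb with the setting. The fall on 8q, in turn, was not found among peaks of intermediate GC content or with the stricter q-value.

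**Figure D2:**
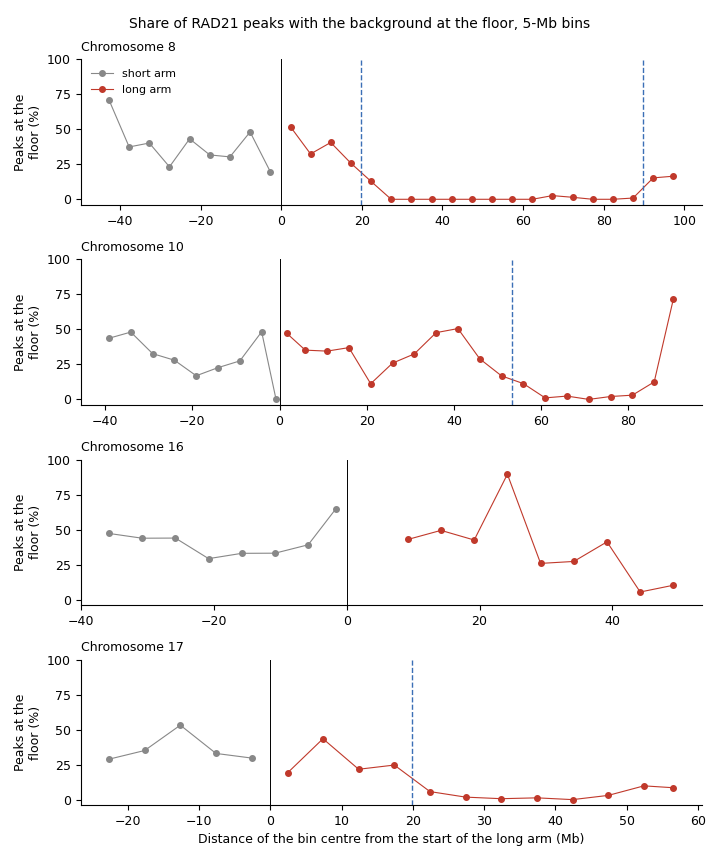
Share of RAD21 peaks with the background at the floor in 5-Mb bins, in percent (vertical axis), against distance from the start of the long arm in Mb (horizontal axis), with short arms in grey, long arms in red and the 4 steps dashed. Most bins to the right of the first step on 8q and 17q lie near 0, and the last bin of 10q returns to 71.8%.

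The bins show how abrupt these changes were. On 8q the 4 bins before 65 Mb had 51.5%, 32.4%, 40.6% and 25.8% of peaks at the floor, the bin from 65 Mb had 12.8%, and each bin from 70 to 110 Mb had 0.0%. On 17q the bins from 30, 35 and 40 Mb had 43.5%, 21.7% and 24.7%, and the next 5 had 5.74%, 1.79%, 0.662%, 1.27% and 0.0%. On 10q the share went from 29.0% and 16.8% in the bins from 85 and 90 Mb to 11.3%, 1.08%, 2.38% and 0.0% in the 4 that follow. On 16q it went from 41.2% in the bin from 75 Mb to 5.36% in the bin from 80 Mb.

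The extremes within each arm did not fall on the same bins for each measure. On 8q the lowest median background was at the start of the arm, at the floor, and the highest in the bin from 85 Mb (1.30 on the log2 scale), which also had the most fragments at the summit, 110. In that bin 22 of 105 peaks had a background over 10 times the floor and the median fold was 3.13. On 10q the background was lowest, at the floor, in the bins from 80 and 130 Mb and highest in that from 100 Mb (0.82), while summit fragments were highest, 74, in that from 95 Mb. On 16q the background was lowest in the bin from 60 Mb, which had 3.8 peaks per Mb, and highest in that from 80 Mb (0.55). On 17q it was lowest in the bin from 30 Mb (0.15) and highest in that from 55 Mb (0.82). The densest bins were the one from 140 Mb on 8q, with 93.4 peaks per Mb, from 85 Mb on 16q, with 80.0, and from 80 Mb on 17q, with 99.5. These dense bins had GC contents of 52.6%, 53.0% and 54.2% and medians of 30, 28 and 29 summit fragments, the lowest of their arms.

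The edges were then placed between neighbouring peaks by the share at the floor, within 7.5 Mb of each bin edge. This placement was chosen after the data were examined. It seeks the split that best separates peaks at the floor from the others, so the counts on either side are descriptions. On 17q the change fell between summits at 45284349 and 45293663, inside MAP3K14, a kinase of the non-canonical NF-kappaB pathway. Of the 30 peaks before it 11 were at the floor, and of the 30 after it 1 was. The last peak before the edge had a background of 5.9 and the first after it 10.42. Placement by the log2 background of the same peaks, which is not independent of the share at the floor, gave the same pair.

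On 8q the edge fell at 66.01 Mb, near DNAJC5B, with 11 of 30 peaks at the floor before it and 2 of 30 after it. By the log2 background it fell at 66.49 Mb. On 10q it fell at 97.73 Mb, near ZFYVE27, with 8 of 30 before and 1 of 30 after, and at 99.38 Mb, inside CNNM1, by the log2 background. On 16q it fell at 79.33 Mb, beyond the end of WWOX, a large gene that spans a common fragile site, with 14 of 30 before and 3 of 30 after. By the log2 background it fell at 80.72 Mb. The distal fall on 10q lay at 129.6 Mb, inside MGMT, which encodes the O6-methylguanine repair enzyme, with 5 of 30 peaks at the floor before it and 30 of 30 after it. By the log2 background it lay at 128.3 Mb, 139724 bp from MKI67.

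These edges define a raised stretch on each long arm, from 66.01 Mb to the end of 8q, from 97.73 to 129.6 Mb on 10q, from 79.33 Mb to the end of 16q and from 45.29 Mb to the end of 17q. Together they held 4910 peaks, 63.8% of those on the long arms. The stretches take in, whole or in part, bins that were not called raised above. On 8q these were the bins from 110, 135 and 140 Mb (0.361, 0.312 and 0.38). On 10q they were those from 95, 105 and 125 Mb (0.38, 0.361 and 0.4), and on 16q those from 75 and 85 Mb (0.0732 and 0.4). The start on 16q and the end on 10q came from steps found only under other settings. Since the share at the floor placed the edges, the backgrounds that follow are descriptions. In the raised stretches 5.17% of peaks were at the floor and the median background was 9.048, or 1.53 times the floor. Of the 2713 peaks in the lower stretches before the rises, 33.3% were at the floor and the median was 6.63, as on the short arms and the other autosomes. The 75 peaks at the end of 10q stood at 73.3%.

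The raised stretches were alike in level but not equal. The median background was 9.469 on 8q (1762 peaks), 9.09 on 17q (1634), 8.985 on 10q (929) and 8.101 on 16q (585). Within 8q, the part before 135 Mb had 9.89 and 0.58% at the floor, and the part after it 7.577 and 16.2%. The distal part had a GC content of 47.0% against 38.6%, and 55.17 peaks per Mb against 17.49. The 10-kb window of Input set the background of 29.1% of peaks in the raised stretches and of 9.55% in the lower ones. Where it did so below 5 times the floor, the median window held 365 Input fragments in the raised stretches (quartiles 324 and 415) and 303 in the lower ones (288 and 324), with 280 corresponding to the floor. The median was 304 on the short arms and on the other autosomes. Only windows above the floor enter these counts, so they do not give the Input level over all peaks.

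**Figure D3:**
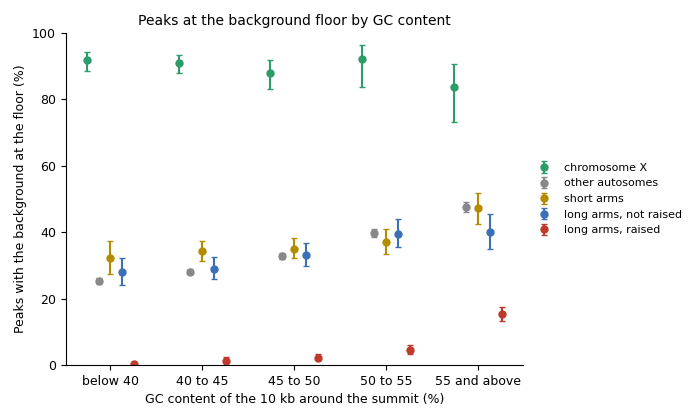
Share of RAD21 peaks with the background at the floor, in percent (vertical axis), by GC content of the 10 kb around the summit (horizontal axis), for chromosome X, the other autosomes, the short arms, and the long arms outside and inside the raised stretches; bars are Wilson 95% intervals. In each GC class the raised stretches lie lowest and chromosome X highest.

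The share at the floor also varied with base composition. Since that share placed the edges, its values by GC class and the background ratios below are descriptions. Among peaks with under 40% GC in the surrounding 10 kb, 0.28% were at the floor in the raised stretches, 28.0% in the lower stretches and 91.8% on chromosome X. With 45 to 50% GC the shares were 2.24%, 33.1% and 88.0%. With 55% GC and above they were 15.3%, 40.1% and 83.8%. Of the 254 raised-stretch peaks at the floor 168 belonged to this last class. With 45 to 50% GC the median background of the raised over the lower stretch was 1.53 (1.41 to 1.66) on 8q, 1.45 (1.35 to 1.56) on 17q, 1.36 (1.28 to 1.45) on 10q and 1.36 (1.27 to 1.45) on 16q.

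Within classes of GC content, peaks were denser in the raised stretches than on the other autosomes, by 1.12 times below 40% GC and by 1.21, 1.32, 1.59 and 1.94 times in the rising GC classes. Peaks were split at 48 summit fragments, the median of all autosomes, a split added after the data were examined. The cut itself does not use the background. However, every peak counted had passed a q-value that sets fragments against the background, and the share at the floor placed the stretches. The density ratios in both classes are therefore not independent of the background and are descriptions. Peaks of at least 48 fragments were 1.35 times as dense below 40% GC and 1.25, 1.28, 1.26 and 1.24 times in the rising classes. For peaks with fewer fragments the ratio was 0.853 below 40% GC and then 1.15, 1.35, 1.89 and 2.47, so that it varied with GC content. The class of 55% GC and above has no upper limit. It covered 5.95 Mb of the raised stretches, against 28.1 Mb of the other autosomes. The GC-rich bins from 140 Mb on 8q and from 85 Mb on 16q lie in these stretches but were not called raised. In sequence of 50 to 55% GC, peaks with fewer fragments numbered 50.2 per Mb in the raised stretches, 29.4 in the lower stretches, 26.6 on the other autosomes and 13.4 on chromosome X. Peaks of at least 48 fragments numbered 29.7, 27.5, 23.6 and 11.1 per Mb in the same order.

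**Figure D4:**
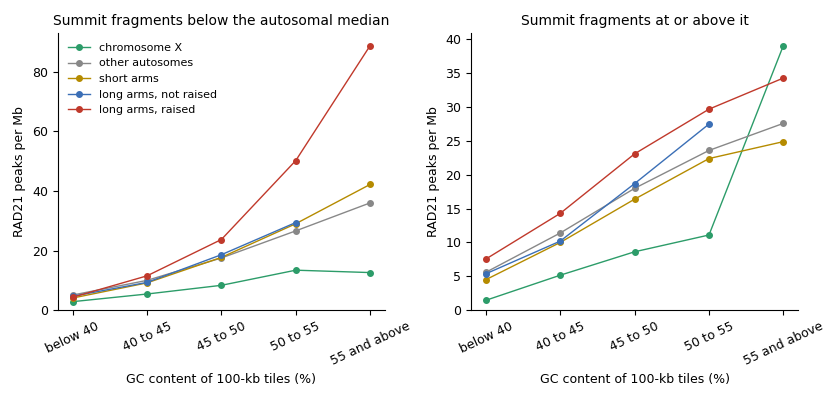
RAD21 peaks per Mb (vertical axes) by GC content of 100-kb tiles (horizontal axes), for peaks with under 48 fragments at the summit (left) and with at least 48 (right), in the same groups of sequence. Peaks with few fragments reach 88.8 per Mb in the raised stretches in the highest GC class, 2.47 times the density on the other autosomes, and peaks with many fragments 34.3 per Mb against 27.6; classes with little sequence are not drawn.

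Fold enrichment has the background as its denominator, and the raised stretches were placed by the background, so their folds are given as a description. A fold below 3 was found in 29.8% of peaks in the raised stretches and in 14.8% in the lower ones. The median fold was 4.16 and 5.82, and the median summit fragments were 45 (43 to 46) and 49 (47 to 51). By arm the ratio of the median folds ran from 0.57 (0.51 to 0.638) on 16q to 0.77 (0.695 to 0.857) on 10q over all peaks. Among peaks with the CTCF consensus it was 0.65 (0.317 to 1.34) on 8q, 0.79 (0.613 to 1.01) on 17q, 0.92 (0.667 to 1.27) on 10q and 1.11 (0.756 to 1.64) on 16q, each with an interval that includes 1.

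Peaks with the CTCF consensus within 50 bp of the summit form a set defined by sequence. They were 10.0% of long-arm peaks and 11.5% of all peaks. Their 444 members in the raised stretches had a median background of 10.42 (10.1 to 11.11), against 7.175 (6.733 to 7.577) for the 318 in the lower stretches. Their median of summit fragments was 127 (116 to 144) against 117 (99 to 132), 100 on the short arms, 91 (88 to 93) on the other autosomes and 47 (43 to 56) on chromosome X. The raised stretches thus exceeded the other autosomes, but their interval overlapped that of the lower stretches.

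By arm, the summit fragments of consensus peaks in the raised stretch over those in the lower stretch had a ratio of 1.43 (1.08 to 1.91) on 10q and 1.43 (0.988 to 2.07) on 16q. The ratio was 0.90 (0.66 to 1.22) on 17q and 0.83 (0.314 to 2.18) on 8q, where the lower stretch held 18 such peaks. Only on 10q did the interval leave out 1. The background ratio of the same peaks ran from 1.39 (1.25 to 1.56) on 17q to 1.51 (1.22 to 1.88) on 8q.

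**Figure D5:**
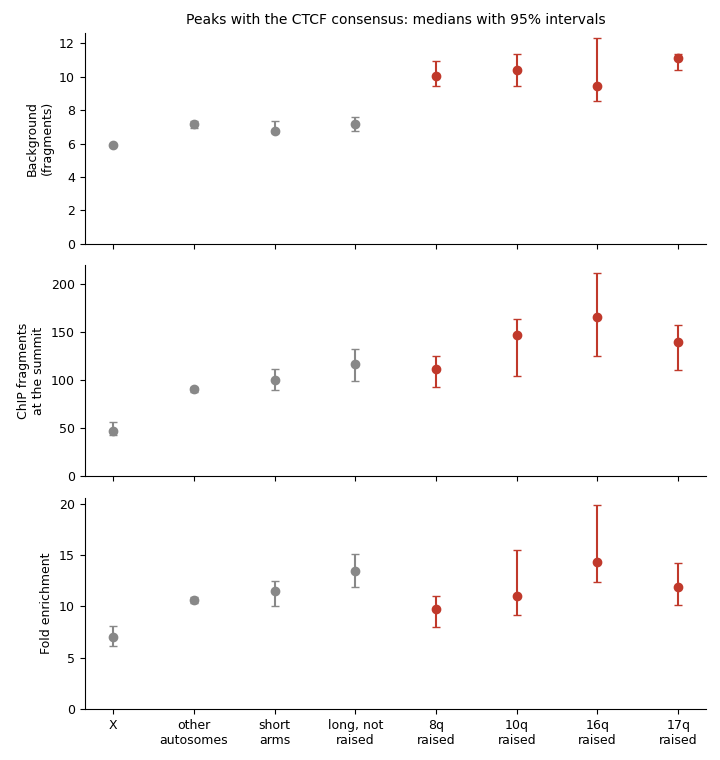
Median background in Input-scaled fragments, median ChIP fragments at the summit and median fold enrichment (vertical axes, top to bottom) of peaks with the CTCF consensus on chromosome X, the other autosomes, the short arms, the long arms outside the raised stretches and the 4 raised stretches (red); bars are 95% order-statistic intervals. The background of each raised stretch lies above every other group, from 9.471 to 11.13, whereas the intervals of fragments overlap that of the lower long-arm stretches on each arm, and those of fold on each arm but 8q.

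The strongest peaks lay on both sides of the edges. A fold of at least 10 was reached by 1942 long-arm peaks (25.2%) and by 27.4% of all peaks. The strongest peak of the whole list was on 17q, at 83205674 in an intron of a lncRNA near the chromosome end, with 1912 fragments over a background at the floor (277-fold), although it lies within the raised stretch. The peak ranked 2 was also on 17q, outside the raised stretch, at 41662839 between genes near EIF1, with 1310 fragments (161-fold). The next on that arm, at 74379607 near GPR142, reached 98.7-fold.

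On 16q the strongest peak was intergenic at 86564033, 2796 bp from FOXC2, a forkhead transcription factor gene, with 1218 fragments over 8.524 (128-fold). It was followed by the MMP2 peak shown above and by one at 77236227 near ADAMTS18 (95.9-fold). On 10q the strongest were in an intron of MMRN2, a gene of the endothelial matrix, at 86939566 (735 fragments, 107-fold), at the COMTD1 promoter at 75236068 (103-fold) and at the PTPRE promoter at 127907018 (81.7-fold), the last within the raised stretch. On 8q they were at 141508152 near MROH5 (79.9-fold), in an intron of COL22A1 at 138767810 (67.9-fold) and near ST3GAL1 at 133449661 (63.8-fold, with the consensus), all within the raised stretch.

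The highest background of each arm was at another peak, within the raised stretch on 8q and 16q and outside it on 10q and 17q. On 17q the peak at 26603915 had a background of 2377 fragments, 403 times the floor, and 3408 ChIP fragments, a fold of 1.43. On 10q the peak at 41859935 stood at 154 times the floor with a fold of 1.42. On 8q the peak at 85821162, in the bin of highest background, stood at 26.5 times the floor with a fold of 2.07. On 16q the highest was 3.85 times the floor, in an intron of PRDM7, with 540 fragments and a fold of 22.8. At the arm boundaries, the first long-arm peaks were at 45314640 on 8q, 41694840 on 10q, 46483072 on 16q and 25186412 on 17q, with folds of 3.17, 2.70, 8.55 and 2.54. The last short-arm peaks, at 45007944, 41216736, 37396405 and 25074471, had folds of 2.73, 2.91, 3.02 and 1.63.

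Genes of the cohesin machinery on these arms were examined at their promoters. Among protein-coding genes on chromosomes 1 to 22 and X, 44.0% had a summit within 1 kb of a transcription start. CTCF, on 16q, had such a peak with 58 fragments over 6.46 (7.91-fold), and WAPL on 10q, which encodes the factor that releases cohesin from DNA, had one with 23 over 7.365 (2.87-fold). RAD21 itself, on 8q, had none, its nearest summit lying 12883 bp from a start, with 108 fragments over a background of 15.15. SMC3, which encodes a core ring subunit, had none either on 10q, the nearest being 1632 bp away.

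Of 23 cancer genes described on the long arms 14 had a promoter peak (60.9%), as had 10 of 16 listed on the short arms (62.5%). Among the listed genes with a promoter peak, the 10 in raised stretches had backgrounds from 8.417 to 12.31, and 0 of them were at the floor. Of the 6 on the long arms outside those stretches 2 were at the floor, and of the 10 on the short arms 4 were. The backgrounds on the short arms ran from 5.9 to 9.471, so they overlapped those of the raised stretches. Over all peaks, the share at the floor was 5.17% in the raised stretches, 33.3% in the lower ones and 36.6% on the short arms. That share placed the stretches, so the counts for the listed genes are descriptions and not results about these genes.

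Inside the raised stretches, MYC, the transcription factor gene on 8q, had 140 fragments over 12.31 (10.6-fold). SOX9 on 17q, a regulator of intestinal stem cells, had 81 over 8.627 (8.52-fold), and RNF43 on 17q, a ubiquitin ligase that lowers Wnt receptors, had 97 over 11.37 (7.93-fold). TCF7L2 on 10q, which encodes a Wnt effector, had 68 over 9.28 (6.71-fold) at an internal transcription start. The peaks of PTK2, CCNE2, EXT1, AXIN2, FANCA and FGFR2 were weaker, with folds of 3.95, 3.92, 3.03, 3.08, 2.86 and 2.48.

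Outside them, the strongest promoter peak was that of CDK12 on 17q, which encodes a kinase of transcription elongation, with 154 fragments over the floor (22.5-fold) at an internal start. WWOX, just before the 16q edge, had 56 over the floor (8.26-fold), FAS 54 over 6.712 (7.13-fold, at an internal start) and CDH1, the E-cadherin gene, 29 over 5.976 (4.30-fold). On either side of the edges, the listed genes TRPS1, BMPR1A, MGMT, CYLD, ERBB2, BRCA1, NF1, TOP2A and STAT3 had no summit within 1 kb of a start.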

How the data were processed

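RAD21 ChIP-seq peaks of 1 library, untreated wild-type HCT116 cells, were used. Per the study's methods, the authors trimmed reads (Trimmomatic 0.39), aligned them to GRCh38 (Bowtie2 2.5.3), removed duplicates (Picard) and called peaks with MACS2 2.2.9.1 against Input at a q-value of 0.05. The deposited peaks hold a fold enrichment, a −log10 p-value and a −log10 q-value at the summit, and the deposited score is a whole number that MACS2 derives from the q-value. Fragments and background were recovered from the first pair of values, with whole fragments (within 0.05) for all but 14 of 56853 peaks, and the recovery and the step search were tested on simulated data. Genes came from GENCODE 44. Steps came from recursive splitting of 5-Mb bin medians, with at least 10 peaks a bin and 2 bins a side. Medians have order-statistic intervals. Named peaks were the 3 strongest of each arm, listed genes' promoter peaks, and those at edges, arm starts and extremes. Python 3.11.15, numpy 2.4.6, pandas 2.3.3 and scipy 1.17.1 were used. A listed long-arm gene is not reported here and was left out of the list counts. Members and lists were chosen with earlier results of these data known. Library depth was not given by the files used.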

Additional observations from a re-analysis of the deposited data

How the results depend on the processing

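Of 82 alternatives, 42 left a log2 ratio within the interval of the value reported, though 4 of these changed its sign around 0, and 12 left a count within 1.5 times of it. A further 19 moved the value beyond these limits and 9 did so with the opposite sign. For the background the intervals are narrowed by ties, so small changes there count as moved. The 4 changes of sign were all in summit fragments. For density, the log2 difference of long over short arm on chromosome 8 became -0.035 with a q-value up to 1e-05, -0.23 without 5 Mb at the arm ends and -0.30 for consensus peaks. On chromosome 16 it became -0.0099 with the stricter q-value, -0.11 over full length and -0.19 without the arm ends. For the background, the difference on chromosome 8 was 0.52 with the stricter q-value and without the arm ends, 0.51 at intermediate GC content and 0.54 for consensus peaks. On chromosome 10 it was 0.22 at intermediate GC content and 0.17 for consensus peaks. On chromosome 16 it was 0.067 without the arm ends, 0.11 outside promoters and 0.27 for consensus peaks, and on chromosome 17 it was 0.45 with the stricter q-value, 0.38 without the arm ends, 0.51 at intermediate GC content and 0.54 for consensus peaks. For summit fragments, chromosome 10 gave 0.22 with the stricter q-value and 0.46 for consensus peaks. Chromosome 16 gave 0.064 without the arm ends, -0.41 outside promoters and 0.18 for consensus peaks, and chromosome 17 gave -0.22 at intermediate GC content and 0.68 for consensus peaks. The number of steps was 7 at a minimum of 0.2 and 2 at a minimum of 0.4. The cause of these changes was not tested. The difference in background kept its direction on every chromosome under each alternative run, and no step was found on a short arm of these chromosomes.

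The peaks come from 1 library and from 1 Input whose cells are not named, so the background cannot be assigned to the wild-type cells or to the clone. Neighbouring peaks share Input windows and are not independent. No paired analysis was possible because no comparison was made between groups of samples.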
